A study of Rattus rattus with 8 samples.

Results

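The BCL2 family genes described here were taken by gene symbol from a table of 30957 rat genes, and 9 of the 10 symbols looked for had a row: Bcl2, Bcl2l1, Bcl2l2, Bax, Bak1, Bcl2l11, Bid, Bad and Pmaip1. Mcl1 was not analysed here. All 9 had enough counts to be among the 12983 genes tested. The RNA came from cultures labelled as neonatal rat cardiomyocytes, of strain SD, isolated 1 to 3 days after birth. They were cultured for 24 h after differential adherence in medium with AraC at 0.2 mM, which blocks DNA replication. The cultures were starved of serum and then held in 1% oxygen for 48 h. The cells were sorted on the DNA dye Hoechst 33342, used at 2 µg/mL, into diploid (2n) and tetraploid (4n) fractions, with 4 libraries of each from independent experiments. Both fractions of every experiment had gone through hypoxia and AraC, so the comparison is between fractions of treated cultures and holds no normoxic control. A 4n signal can come from a tetraploid nucleus, a binucleated cell, a cell in G2 or M phase, or 2 diploid cells sorted together.

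Proteins of the BCL2 family decide whether the outer membrane of mitochondria is opened during apoptosis, which releases cytochrome c and leads to caspase activation. Bcl2, Bcl2l1 (Bcl-xL) and Bcl2l2 (Bcl-w) hold the membrane closed, the effectors Bax and Bak1 form pores in it, and the BH3-only proteins Bcl2l11 (Bim), Bid, Bad and Pmaip1 (Noxa) sense stress and either neutralise the first set or activate the second. Heart muscle cells are long-lived, and loss of oxygen is among the stresses that act on them through this family. Much of the control is on the proteins (cleavage of Bid, phosphorylation of Bad, movement of Bax), which RNA levels do not show.

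The libraries held 14783521 to 21033772 counts. The fractions were not pure in cell type. The summed level of 10 cardiomyocyte markers in the table was 486 to 940 CPM (counts relative to a library size scaled by TMM, the trimmed mean of M values) in 2n and 4001 to 29286 CPM in 4n, highest in 4n replicate 3. All 10 rose in 4n by edgeR's quasi-likelihood test at an adjusted p under 0.05, and 9 of 10 with the replicate number as a block. The 7 fibroblast markers summed to 44108 to 57473 CPM in 2n and 29381 to 51392 CPM in 4n, and 0 of 7 passed, while with the block 2 of 7 fell. The fibroblast sum was above the cardiomyocyte sum in every library, though narrowly in 4n replicate 3 (29381 against 29286 CPM). The 5 endothelial markers summed to 22.8 to 48.2 CPM and 57.4 to 341 CPM, the 5 smooth muscle markers to 375 to 780 CPM and 696 to 2167 CPM, and the 5 myeloid markers to 0.390 to 1.89 CPM and 0.358 to 6.12 CPM. Of these, 1 smooth muscle gene rose without the block, and with the block 0 smooth muscle and 4 of 5 endothelial genes rose. Within the smooth muscle sum, Des had 125 to 193 CPM in 2n and 343 to 1634 CPM in 4n. The ranges of the other smooth muscle markers, Myh11, Cnn1, Rgs5 and Cspg4, overlapped between the fractions. No marker in the table was at 0 in all 8 libraries. Mitochondrial genes took 24.1% to 25.9% of the counts in 4n replicates 2, 3 and 4, against 2.87% to 3.82% in the other 5 libraries. In such bulk samples, a change in the share of a cell type cannot be told apart from a change of RNA per cell, and the part of cell makeup in the values below was not tested.

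Of the genes compared in this paragraph, the effectors Bax and Bak1 were the most abundant per length in both fractions. The other BCL2 relatives described further below, such as Bnip3, were left out of this ranking. On the FPKM scale, averaged over all 8 libraries, Bax stood at 31.1 ± 3.25, Bak1 at 24.3 ± 3.44, Bad at 17.9 ± 2.39 and Bcl2l2 at 16.7 ± 1.15 (SD, n = 8). Pmaip1 followed at 14.8 ± 4.34 and Bcl2l1 at 10.1 ± 1.29, and the lowest were Bid at 5.54 ± 1.21, Bcl2 at 3.04 ± 0.677 and Bcl2l11 at 2.21 ± 0.919 (SD, n = 8). The ranges of neighbours in this order overlapped, except between Bcl2l1 and Bid and between Bid and Bcl2, so only these 2 steps exceeded the spread over the libraries. Bax was nevertheless above Bak1 in 7 of 8 libraries, and Bak1 above Bad in 8 of 8. Among the genes analysed here that protect the membrane, which do not include Mcl1, Bcl2l2 and Bcl2l1 carried most of the transcript and Bcl2 the least. Bcl2 was also the least counted, with 38 to 84 counts per library. Its lowest count, 38 in 4n replicate 2, has an exact Poisson 95% interval of 26.9 to 52.2, which covers counting error only. The FPKM values imply a length of 1179 bases for Bcl2 and 6487 for Bcl2l1, so these levels depend on how much of each transcript the annotation held.

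**Figure D1:**
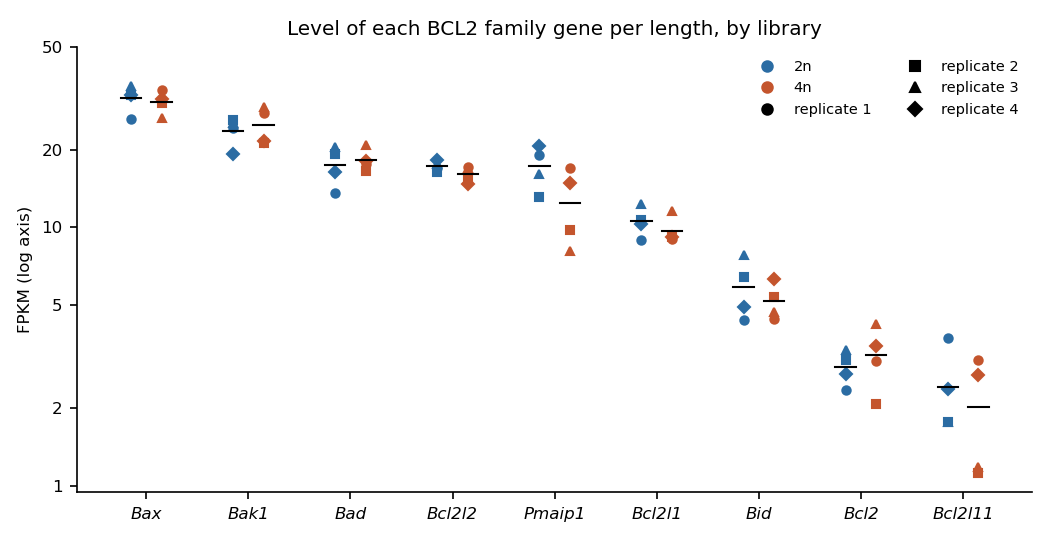
FPKM (log axis) of each of the 9 genes in each library, 2n in blue and 4n in orange, with a marker shape per replicate and a bar at the mean of 4 libraries. Bax and Bak1 lie highest, Bcl2 and Bcl2l11 lowest, and the 2n and 4n values of every gene overlap on this scale.

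None of the 9 genes differed between 4n and 2n at an adjusted p under 0.05. By edgeR's quasi-likelihood test, 0 of 9 passed, 0 of 9 had an unadjusted p under 0.05, and the adjusted p lay between 0.343 and 0.950. Across all genes 2.68% passed and 17.4% had an unadjusted p under 0.05. With the replicate number as a block, which compares the 2 fractions within each experiment, 0 of 9 passed (adjusted p from 0.109 to 0.762, against 4.88% of all genes called). With that block 3 of 9, Bad, Bak1 and Pmaip1, had an unadjusted p under 0.05, against 29.9% of all genes. DESeq2 and limma on FPKM values called 0 of 9, where they called 6.68% and 2.24% of all genes. The 95% interval of the fold between fractions lay within 2-fold in either direction for 8 of 9 genes without the block and for 9 of 9 with it, and within 1.5-fold for 3 and 8 of 9. The exception without the block was Bcl2, whose interval reached from 0.850-fold to 2.08-fold.

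**Figure D2:**
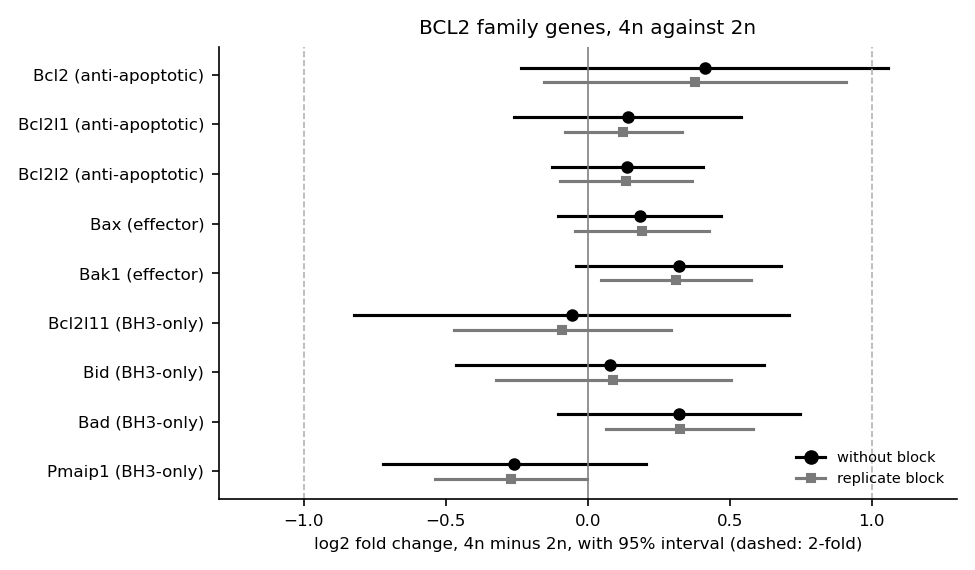
Log2 fold change of each gene, 4n minus 2n, with its 95% interval, without the replicate block (black circles) and with it (grey squares), with dashed lines at a 2-fold difference. Of the intervals without the block all include 0, and with the block those of Bak1, Bad and Pmaip1 leave it out before adjustment for multiple testing.

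The membrane-protecting genes had small positive folds, none past the test. Bcl2 (ENSRNOG00000002791, chromosome 13 from 26605426 to 26769374 in Rnor_6.0) had 2.50, 3.30, 3.71 and 2.98 CPM in 2n replicates 1 to 4 and 3.22, 2.82, 6.01 and 4.60 CPM in 4n. The 4n value was above the 2n value of the same replicate in 3 of 4 pairs, and the groups overlapped. Its log2 fold change was 0.41 ± 0.29 (SE, adjusted p = 0.498 in edgeR). Bcl2l1 (ENSRNOG00000007946, chromosome 3 from 148259596 to 148313810) had 52.3, 63.1, 74.5 and 62.4 CPM in 2n and 52.3, 68.7, 90.7 and 66.4 CPM in 4n. Both fractions were lowest in replicate 1 and highest in replicate 3, so the spread lay more between experiments than between fractions. The log2 fold change was 0.14 ± 0.18 (SE, adjusted p = 0.726 in edgeR). A second gene of the table, AABR07054332.1, with 588 to 1236 counts per library, lies inside the span of Bcl2l1. No strand setting is given in the sources used here and overlap of exons was not checked, so whether these genes share reads is not known. Bcl2l2 (ENSRNOG00000015732, chromosome 15 from 33544312 to 33549164) was the steadiest of the family in 2n, at 54.1, 52.8, 57.9 and 59.9 CPM, against 54.3, 63.2, 72.0 and 57.9 CPM in 4n. Its log2 fold change was 0.14 ± 0.12 (SE, adjusted p = 0.585 in edgeR), with overlapping groups.

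Of the pore-forming effectors, Bak1 came closest to a difference and was the 1 gene of the 9 whose groups did not overlap, where 11.4% of all genes tested had groups that did not. Bak1 (ENSRNOG00000000485, chromosome 20 from 5609629 to 5618221) had 41.2, 44.9, 44.7 and 33.8 CPM in 2n and 47.0, 46.1, 66.6 and 45.8 CPM in 4n. The gap between the groups was narrow, from 44.9 to 45.8 CPM, and closed on the FPKM scale, where the groups overlapped, and 4n replicate 3 stood far above the other 4n libraries. The log2 fold change was 0.32 ± 0.16 (SE, adjusted p = 0.343 in edgeR), higher in 4n in 4 of 4 pairs, at 0.19, 0.04, 0.57 and 0.44 on the log2 scale. Without 4n replicate 3, the library with the most cardiomyocyte marker RNA, the log2 fold change was 0.17 (adjusted p = 0.687 in edgeR). Bax (ENSRNOG00000020876, chromosome 1 from 101451802 to 101457207) had 32.6, 40.8, 45.2 and 41.5 CPM in 2n and 41.8, 48.1, 43.8 and 48.0 CPM in 4n. Bax lay higher in 4n in 3 pairs and slightly lower in the pair of replicate 3, the pair in which Bak1 differed most. The log2 fold change was 0.18 ± 0.13 (SE, adjusted p = 0.498 in edgeR).

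**Figure D3:**
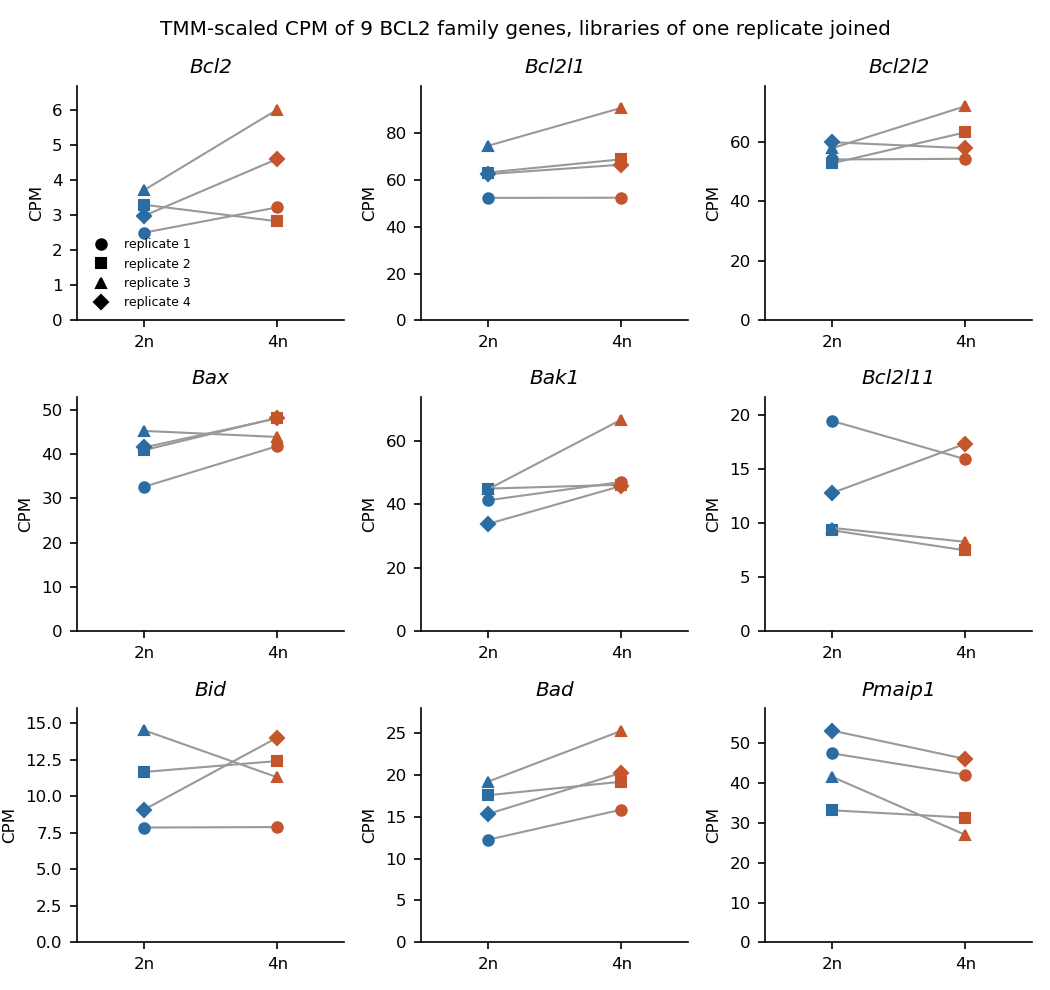
TMM-scaled CPM of the 9 genes in 2n and 4n, with a line joining the libraries of each replicate and the axis starting at 0. Bad, Bak1 and Bcl2l1 are higher in 4n in 4 of 4 pairs, Bcl2l1 only by 0.0018 on the log2 scale in replicate 1, and Pmaip1 is lower in 4 of 4.

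The BH3-only genes did not move as a group: 2 of 4 had positive and 2 had negative folds, and none passed. Bad (ENSRNOG00000021147, chromosome 1 from 222198534 to 222207453), whose protein is held inactive by survival kinases, had 12.2, 17.6, 19.2 and 15.3 CPM in 2n and 15.8, 19.2, 25.2 and 20.2 CPM in 4n. It was higher in 4n in each pair, by 0.37, 0.13, 0.39 and 0.40 on the log2 scale, while the groups as a whole overlapped. The log2 fold change was 0.32 ± 0.19 (SE, adjusted p = 0.420 in edgeR) and 0.32 ± 0.11 with the block (adjusted p = 0.109 in edgeR). Pmaip1 (ENSRNOG00000018770, chromosome 18 from 62174670 to 62181102), whose protein binds Mcl1, went the other way, with 47.4, 33.1, 41.5 and 53.1 CPM in 2n and 42.0, 31.3, 27.0 and 45.99 CPM in 4n. It was lower in 4n in each pair, most in replicate 3, and the groups overlapped. The log2 fold change was -0.26 ± 0.21 (SE, adjusted p = 0.556 in edgeR) and -0.27 ± 0.11 with the block (adjusted p = 0.163 in edgeR). Among all genes tested 20.2% were higher and 19.7% lower in 4n in all 4 pairs, against 3 and 1 of the 9 genes.

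Bcl2l11 (ENSRNOG00000016551, chromosome 3 from 120726906 to 120764192), the BH3-only gene that binds every protecting member, had 19.5, 9.37, 9.59 and 12.8 CPM in 2n and 15.9, 7.50, 8.29 and 17.4 CPM in 4n. It was lower in 4n in 3 pairs and higher in replicate 4. Its log2 fold change was -0.06 ± 0.34 (SE, adjusted p = 0.950 in edgeR), and the standard error was 0.16 with the block, since most of its spread lay between experiments. Bid (ENSRNOG00000012439, chromosome 4 from 153442218 to 153465203), which links death receptors to mitochondria once cleaved by caspase 8, had 7.86, 11.7, 14.5 and 9.08 CPM in 2n and 7.89, 12.4, 11.3 and 14.0 CPM in 4n. The pairs of replicates 3 and 4 went in opposite directions, at -0.36 and 0.62 on the log2 scale. The log2 fold change was 0.08 ± 0.24 (SE, adjusted p = 0.899 in edgeR).

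The folds above depend on the scaling in sign where they are small. Scaled by total counts, the median log2 fold change of all genes tested was -0.25, against -0.01 with TMM. With it Bcl2l1, Bcl2l2, Bax and Bid had folds below 0 (-0.12, -0.11, -0.06 and -0.18), all still above that median, while Bcl2, Bak1 and Bad came to 0.16, 0.07 and 0.07, and Pmaip1 and Bcl2l11 to -0.47 and -0.26. Leaving out 4n replicate 3 alone moved Bcl2 to 0.18, Bcl2l2 to 0.06, Bad to 0.19 and Pmaip1 to -0.14, nearer to 0 in each case. Bax went the other way, from 0.18 to 0.20, and the folds of Bcl2l1 and Bcl2l11 changed sign.

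Ratios of pro- to anti-apoptotic transcripts within a library do not depend on the scaling, and they are given as a description without a test. The ratio of Bax to Bcl2, each in FPKM, was 11.2, 10.7, 10.5 and 12.0 in 2n replicates 1 to 4 and 11.2, 14.7, 6.28 and 8.98 in 4n. The 4n values spread to both sides of the narrow 2n range, with the 4n ratio above its 2n partner in 1 of 4 pairs. The means were 11.1 ± 0.671 and 10.3 ± 3.55 (SD, n = 4 each), and the low counts of Bcl2 limit this ratio. The effectors Bax and Bak1 summed over Bcl2, Bcl2l1 and Bcl2l2 averaged 1.80 ± 0.122 in the 2n and 1.92 ± 0.168 in the 4n libraries (SD, n = 4 each), higher in 4n in 2 of 4 pairs. The 4 BH3-only genes over the same sum averaged 1.40 ± 0.0397 in the 2n and 1.32 ± 0.211 in the 4n libraries (SD, n = 4 each), again higher in 2 of 4 pairs. All 3 ratios varied more among the 4n than among the 2n libraries, and none shifted by more than the SD of the 4n libraries. The sums lack Mcl1, so they are not the whole balance.

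**Figure D4:**
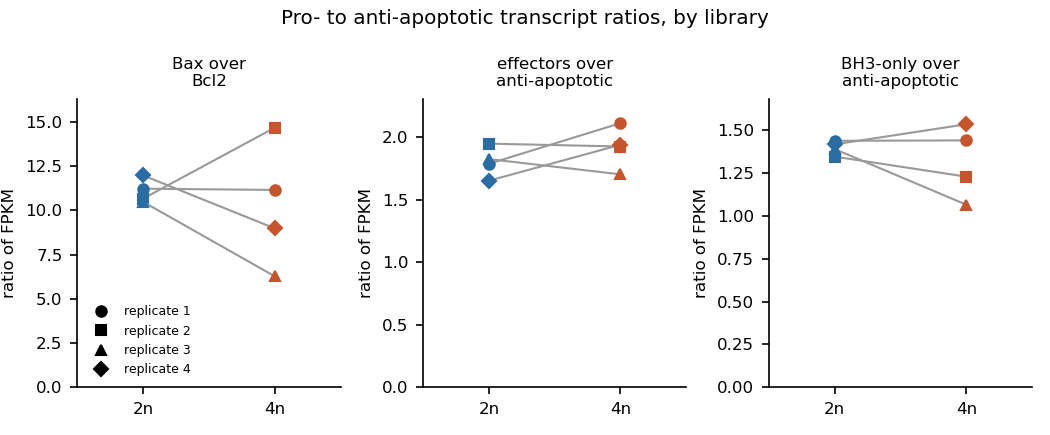
Ratios of summed FPKM in each library, with lines joining the libraries of a replicate and axes from 0: Bax over Bcl2, Bax plus Bak1 over Bcl2 plus Bcl2l1 plus Bcl2l2, and the 4 BH3-only genes over the same 3. The 4n libraries spread more widely than the 2n libraries in each panel, to both sides of the 2n range for Bax over Bcl2 and for the BH3-only genes, while in the effector panel 1 lies above that range and 3 within it.

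None of the 9 genes passed the test for a difference between the 4 independent experiments. With the fraction in the model, edgeR's test of the replicate terms gave 4 of 9 genes with an unadjusted p under 0.05 (30.3% of all genes) and 0 of 9 with an adjusted p under 0.05 (8.21% of all genes). The genes with the smallest p were Bcl2l11 (adjusted p = 0.0502 in edgeR), Bcl2l1 (0.0633), Pmaip1 (0.0886) and Bad (0.110). Averaged over the fractions, Bcl2l11 stood at 17.7, 8.43, 8.94 and 15.1 CPM in replicates 1 to 4, and Pmaip1 at 44.7, 32.2, 34.2 and 49.5 CPM. Both averages were higher in replicates 1 and 4 than in replicates 2 and 3. Bcl2l1, at 52.3, 65.9, 82.6 and 64.4 CPM, and Bad, at 14.0, 18.4, 22.2 and 17.8 CPM, had another order, lowest in replicate 1 and highest in replicate 3. The ratio of the highest to the lowest experiment was 2.10 for Bcl2l11 and 1.20 for Bcl2l2 and Bax. The call for Bcl2l11 lay at the threshold and moved with the setting: it passed with total counts (adjusted p = 0.00268 in edgeR) and without replicate 3 (0.0299), and not without replicate 1, 2 or 4 (0.137, 0.144 and 0.0906). Pmaip1 passed with total counts (adjusted p = 0.0473 in edgeR) and without replicate 3 (0.0235). For Bcl2l1 and Bad total counts went the other way (adjusted p = 0.460 and 0.580 in edgeR). These settings also moved the share of all genes called, to 14.7% with total counts, 19.4% without replicate 3 and 0.494% without replicate 4.

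**Figure D5:**
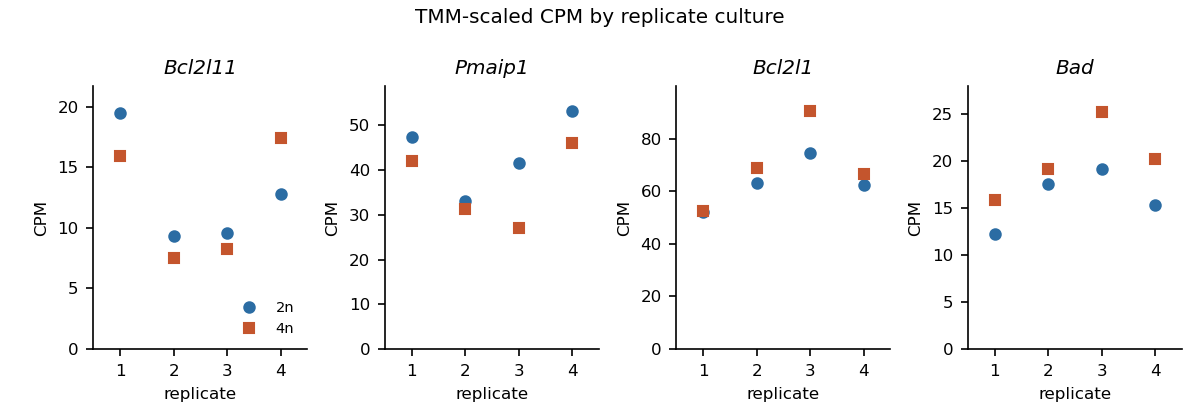
TMM-scaled CPM of Bcl2l11, Pmaip1, Bcl2l1 and Bad by replicate, 2n as blue circles and 4n as orange squares, with axes from 0. In both fractions Bcl2l11 is higher in replicates 1 and 4 than in replicates 2 and 3, while Bcl2l1 and Bad are lowest in replicate 1 and highest in replicate 3.

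Of 55 other genes of the same pathways tested in 6 lists, 7 differed between experiments by the same test, or 12.7% against 8.21% of all genes. Foxo3, a transcription factor known to activate the gene of Bim, had 54.9, 16.5, 25.5 and 27.6 CPM in replicates 1 to 4, averaged over the fractions (adjusted p = 0.00559 in edgeR; 0.114 without replicate 1). It shared with Bcl2l11 the highest value in replicate 1 and the lowest in replicate 2. Bnip3 and Bnip3l, mitochondrial BCL2 relatives that hypoxia is known to induce, stood at 25.9 and 63.6 CPM in replicate 2 and at 218 to 231 and 156 to 197 CPM in the other experiments (adjusted p = 0.00266 and 0.00496 in edgeR). Without replicate 2 neither passed (0.917 and 0.353). Nol3, an apoptosis repressor of muscle, was also lowest in replicate 2 (17.0 CPM against 26.9 to 31.8; adjusted p = 0.0427 in edgeR, and 0.599 without that replicate). Birc3, an inhibitor of apoptosis induced by inflammatory signals, was highest in replicate 4 (10.8 CPM against 3.21 to 4.29; adjusted p = 0.0126 in edgeR, and 0.510 without it). Ddit3, which encodes the stress factor CHOP, was lowest in replicate 4 (19.2 CPM against 30.3 to 41.9; adjusted p = 0.0428 in edgeR, and 0.301 without it). Mtch2, a receptor for Bid on mitochondria, followed the order of Bcl2l1 at its ends, from 36.2 CPM in replicate 1 to 80.4 in replicate 3 (adjusted p = 0.0287 in edgeR, and 0.281 without replicate 1). Averaged over the fractions, other genes of these lists, among them Vdac3, Opa1, Bok and Aifm1, were also lowest in replicate 1 and highest in replicate 3. None of those named passed (adjusted p = 0.1705, 0.112, 0.454 and 0.126 in edgeR). Within 2n alone, Vdac3 and Opa1 kept these ends, while Bok was highest in replicate 2 (21.03 CPM) and lowest in replicate 4 (13.7 CPM). Aifm1 in 2n was highest in replicate 2, at 39.8 CPM against 37.1 CPM in replicate 3. Ddit3, Nol3 and Mtch2 each also failed to pass without some of the other replicates. Leaving out replicate 1, 2 or 4 lowered the share of all genes called from 8.21% to 5.2%, 1.71% and 0.494%. A loss of a call in these settings is therefore not particular to the gene.

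Between 4n and 2n, 0 of these 55 genes passed in edgeR without the block, 9 had an unadjusted p under 0.05, and with the block 1 passed and 22 had an unadjusted p under 0.05. These are 0%, 16.4%, 1.82% and 40.0% of the 55, against 2.68%, 17.4%, 4.88% and 29.9% of all genes. Bok, a BCL2 relative that can permeabilise mitochondria by itself, came closest, with 16.6, 21.03, 16.5 and 13.7 CPM in 2n and 23.6, 36.0, 71.2 and 44.6 CPM in 4n. All 4n libraries lay above all 2n libraries, and the log2 fold change was 1.37 ± 0.31 (SE, adjusted p = 0.0523 in edgeR; 0.0627 with the block). It passed in DESeq2 (adjusted p = 0.000866) and without 4n replicate 1 (adjusted p = 0.00789 in edgeR). Of 13 other BCL2 relatives looked for, 11 were in the table and 6 were tested, with a median log2 fold change of 0.20 (-0.0447 when scaled by total counts). For this list and those below, the median over all genes tested was -0.01, and -0.25 when scaled by total counts. Bcl2l13 and Bcl2l12 had log2 fold changes of 0.21 and 0.19 (adjusted p = 0.616 and 0.715 in edgeR). Bik, a BH3-only gene, was too low to be tested in edgeR, with 0.0434 to 0.212 CPM in 2n and 0.223 to 2.00 CPM in 4n. Bcl2a1, Bcl2l14 and Bcl2l15 stayed at or below 1.71 CPM in every library, and Bcl2l10 was listed at 0 in all 8. The difference of Bok moved with the cardiomyocyte markers, both being highest in 4n replicate 3, and its log2 fold change was 1.03 without that library (adjusted p = 0.0655 in edgeR). What part those cells have in it was not tested.

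In the list of the apoptosome and caspases, with 12 genes tested and a median log2 fold change of 0.14 (-0.104 when scaled by total counts), Endog passed with the block. This nuclease of the mitochondrial interior had 4.14, 2.51, 4.13 and 2.55 CPM in 2n and 7.84, 5.94, 16.2 and 6.72 CPM in 4n. The groups did not overlap, and the log2 fold change was 1.46 ± 0.36 (SE, adjusted p = 0.0691 in edgeR) and 1.39 ± 0.21 with the block (adjusted p = 0.0264 in edgeR). With the block and without replicate 2 or 4, settings in which no gene of the table was called, its log2 fold change was 1.43 and 1.39. Aifm1, the apoptosis-inducing factor that also serves the respiratory chain, had a log2 fold change of 0.84 ± 0.32 (SE, adjusted p = 0.232 in edgeR). Cytochrome c itself, Cycs, has 2 rows in the table, so its reads may be split between near-identical copies. Both rows had a log2 fold change of 1.42 to 1.43 (adjusted p = 0.113 and 0.127 in edgeR). Casp8, the caspase that cleaves Bid, lay lower in 4n without overlap, at 5.97, 6.72, 7.42 and 8.94 CPM in 2n and 4.83, 4.31, 4.00 and 5.91 CPM in 4n (log2 fold change -0.61 ± 0.21 SE, adjusted p = 0.172 in edgeR).

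The other lists had no gene past the threshold with or without the block in edgeR. In the death receptor list all 6 genes tested had folds below 0, with a median of -0.15 (-0.378 when scaled by total counts). Over all genes tested the medians were -0.01 and -0.25. Ripk1, a kinase of the receptor complex, averaged 61.2 ± 6.61 CPM over the 2n and 45.1 ± 7.63 over the 4n libraries (SD, n = 4 each), a log2 fold change of -0.44 ± 0.15 (SE, adjusted p = 0.172 in edgeR). Fas and Tnfrsf10b had -0.32 and -0.21 (adjusted p = 0.562 and 0.627 in edgeR). Among 10 inhibitors of apoptosis, with a median of -0.07 (-0.312 with total counts), Cflar, which blocks Casp8 activation, had -0.48 ± 0.16, lower in 4n in 4 of 4 pairs (SE, adjusted p = 0.177 in edgeR; 0.0516 with the block). Bag1 and Birc5 had log2 fold changes of 0.29 and 0.46 (adjusted p = 0.277 and 0.392 in edgeR).

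All 9 mitochondrial partners tested had folds above 0, with a median log2 fold change of 0.31 against -0.01 over all genes tested. Scaled by total counts, 7 of 9 were above 0 and the median was 0.0445, against -0.25 over all genes tested. Tomm20, an import receptor of the outer membrane, averaged 90.3 ± 10.4 CPM over the 2n and 123 ± 15.6 over the 4n libraries (SD, n = 4 each), with groups that did not overlap and a log2 fold change of 0.45 ± 0.13 (SE, adjusted p = 0.129 in edgeR; 0.0518 with the block). Vdac3, a channel of that membrane, had 0.60 ± 0.24, and Tomm22, 0.30 ± 0.16 (SE, adjusted p = 0.246 and 0.386 in edgeR). These lay highest, for Vdac3 and Tomm22, in 4n replicate 3, where cardiomyocyte markers and the mitochondrial share of counts also peaked. The part of these in the folds was not tested. Among 12 regulators of BCL2 proteins, with a median of -0.14 (-0.370 with total counts, where 12 of 12 were below 0), Huwe1, a ubiquitin ligase for Mcl1, had a log2 fold change of -0.35 ± 0.16 and Ddit3 one of -0.43 ± 0.28 (SE, adjusted p = 0.301 and 0.466 in edgeR).

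The genes whose pattern over the 8 libraries was most like that of Bak1 and Bad, the 2 members with the smallest unadjusted p, were sought among the 12982 other genes tested by the mean absolute difference of centred log2 CPM. For Bak1 they were Aldh7a1, Sept6, Samm50 and Dnaja3, at 0.0533 to 0.0647, where Bak1 itself deviated from its mean by 0.155 on average. For Bad they were Cdipt, Nubp1, Hras and Ncaph, at 0.0475 to 0.0638, against a mean deviation of 0.229 for Bad. The libraries of a replicate share a culture, so these 8 points are not independent.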

How the data were processed

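The submitters' processing notes name HISAT2 2.0.4 and the build Rnor 6.0. No source used here gives the counting tool, filters or strand setting. The deposited counts are whole numbers per Ensembl gene, not normalized, per the file headers and values. The deposited FPKM values equal those counts divided by the library total and a constant per gene. The labels name the organism as Rattus rattus, while the build is of Rattus norvegicus.

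Groups and replicate numbers came from the sample titles and table columns from the sample descriptions. Counts were tested with edgeR 4.0.16 (R 4.3.3): filterByExpr, TMM scaling, robust quasi-likelihood fit, two-sided, Benjamini-Hochberg adjustment over all 12983 genes tested, threshold 0.05. Intervals are at 95%, from the fold change, its standard error (from the F statistic) and the model's degrees of freedom. CPM use TMM-scaled library sizes, and log2 differences within pairs use a prior count of 2. Limma 3.58.1 was run on log2(FPKM + 0.1), and DESeq2 1.42.0 with its defaults. The scripts were tested on simulated data.

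Deviations from the group means correlated within replicate pairs at 0.43, 0.58, 0.27 and 0.65 across genes, and descriptions of a pair begin with the same code, so libraries with the same number were treated as pairs. Replicates are described as independent experiments.

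The members and the lists around them were chosen with earlier results of these data known. All members are named, and of each other list up to 3 genes with the smallest unadjusted p, or up to 4 past the threshold. The genes singled out for differences between experiments, and Cycs, Bcl2a1, Bik, Bcl2l14, Bcl2l15 and Bcl2l10, were named after their values were seen. The test between experiments was extended to the 6 lists afterwards. Symbols with 2 rows (Cycs, Faim, Tnf and Mff) were left out of list counts. Mcl1, Bbc3 and Hrk were not analysed here, and single values of some list genes are not reported here.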

Additional observations from a re-analysis of the deposited data

Results flagged for a closer look

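In 4n replicate 3, Bak1 stood at 66.6 CPM, far from the other 4n libraries at 45.8 to 47.0 CPM. The gap to its nearest neighbour took 0.940 of the range of the 4 libraries, above Dixon's 95% critical value. This was 1 of 24 groups of 4 libraries checked, over 9 genes and 3 ratios in each fraction, and chance flags about 1 in 20 such groups.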

How the results depend on the processing

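Over 19 alternatives for 4n against 2n, 0 of the 9 family members were called under any; in 7 of these no gene at all was called, so 12 could have shown a call. Bcl2, Bak1, Bad and Pmaip1 kept the sign of their fold. Signs turned for Bcl2l1 (total counts -0.12, limma on FPKM -0.12, without 4n replicate 3 -0.0152, and -0.0152 to 0.253 over single libraries left out), Bcl2l2 (total counts and FPKM, -0.11 each), Bax (-0.0556 and -0.0526), Bcl2l11 (-0.269 to 0.213 over single libraries left out: 0.21 without 2n replicate 1, 0.12 and 0.09 without 4n replicates 2 and 3) and Bid (-0.18 and -0.15 with total counts and FPKM, -0.0480 without 2n replicate 1, -0.0372 without 4n replicate 4, -0.0480 to 0.248 over single libraries left out, and -0.0899 with the replicate block and without replicate 4). The cause was not tested. Calls between experiments went from 0 to 2 of 9 with total counts, 1 with limma on FPKM and 0 to 2 on leaving out a replicate, where 8.21% of all genes became 14.7%, 10.1% and 0.494% to 19.4%. With FPKM Bcl2l11 passed (adjusted p = 0.0398).

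In the other lists, 0 called became 1 (Endog) with the replicate block. With DESeq2, 2 BCL2 relatives (Bok, Bik) and 1 apoptosome gene (Endog) were called higher. With the block and without replicate 1, the genes called higher were 2 relatives, 3 apoptosome genes, 1 inhibitor and 1 mitochondrial partner, and 1 each was called lower in the apoptosome, death receptor and regulator lists. In that setting 1654 of all 12991 genes tested, or 12.7%, were called. With the block and without replicate 3, 1 apoptosome gene and 1 mitochondrial partner were called, where 608 of all 13019 genes tested, or 4.67%, were called. Leaving out single libraries gave 0 to 1 relative and 0 to 1 mitochondrial partner higher and 0 to 1 apoptosome gene lower, each 1 without 4n replicate 1. Among the members and these lists, the replicate block changed no other call. Without 4n replicate 3, the log2 difference of the Bax to Bcl2 ratio went from -0.18 to 0.04. Over all genes, 347 were called higher and 1 lower in edgeR, 554 and 79 with the replicate block, 926 and 81 in DESeq2, 870 and 90 without 4n replicate 1, and 0 without any 1 of the 2n replicates or 4n replicate 4, nor with the block without replicate 2 or 4. Depth limits Bcl2 most.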
